A study of Homo sapiens with 6 samples.

Results

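The genes described here are DTX3L and 8 members of the poly(ADP-ribose) polymerase (PARP) family, namely PARP9, PARP14, PARP10, PARP11, PARP12, ZC3HAV1, PARP1 and PARP2. They were chosen by name, from 10 listed names of which PARP13 and ZC3HAV1 are the same gene, so that 9 of the 61541 genes in the files were members. RNA came from RCC4, an established human line of clear cell renal carcinoma, as 3 untreated cultures and 3 cultures given interferon gamma (IFNγ, 1000 U/mL) with tumour necrosis factor (TNF, 25 ng/mL) for 24 h. Both groups were grown in the same medium, the labels name no vehicle, and neither cytokine was given alone, so the parts of IFNγ and TNF cannot be told apart. Poly(A) RNA was read as native molecules on nanopores, with 1 flow cell per library, and the values are reads per gene. The replicates are labelled biological and used 3 flasks each, and p-values measure the spread between these cultures of 1 line.

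PARP enzymes transfer ADP-ribose from NAD+ onto proteins and, in some cases, nucleic acids. PARP1 and PARP2 are activated by DNA breaks and build long chains of ADP-ribose, whereas most other members add a single unit or have little or no activity of their own. PARP9 forms a complex with the ubiquitin ligase DTX3L, and both are known as interferon-stimulated genes, as are PARP10, PARP12, PARP14 and ZC3HAV1. Type II interferon acts at promoter elements called GAS, and through IRF1 and related factors at interferon-stimulated response elements (ISRE).

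PARP9 and DTX3L lie head to head on chromosome 3 on opposite strands, with annotated starts 239 bases apart in the files (GRCh38) and 139 shared exonic bases at their 5′ ends. Promoter windows of 300 bases run from 250 before to 50 after a start. That of PARP10, a rising gene, was not searched, and those of the other 8 of 9 members were taken from RefSeq (GRCh38.p14). Windows are printed for 3 rising genes that are neighbours on chromosome 3, for PARP12 and for PARP1. The 4 rising genes printed have a core of the ISRE in the window, and PARP1 has none. ZC3HAV1, which also rose, has no ISRE core and is not printed. Whether the core bears on the rise was not tested. Each window reads 5′ to 3′ on the gene's own strand, and capitals mark the ISRE core (GAAA, any 2 bases and GAAA, or on the other strand TTTC, any 2 bases and TTTC) and the GAS core TTCNNNGAA, which reads the same on both strands.
DTX3L, chr3:122564088-122564387, plus strand: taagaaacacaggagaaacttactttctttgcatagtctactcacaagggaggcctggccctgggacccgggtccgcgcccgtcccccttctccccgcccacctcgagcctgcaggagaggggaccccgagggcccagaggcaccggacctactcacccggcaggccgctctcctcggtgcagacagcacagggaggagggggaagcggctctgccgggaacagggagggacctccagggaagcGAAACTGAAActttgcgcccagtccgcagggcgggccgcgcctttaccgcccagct
PARP9, chr3:122564251-122564550, minus strand: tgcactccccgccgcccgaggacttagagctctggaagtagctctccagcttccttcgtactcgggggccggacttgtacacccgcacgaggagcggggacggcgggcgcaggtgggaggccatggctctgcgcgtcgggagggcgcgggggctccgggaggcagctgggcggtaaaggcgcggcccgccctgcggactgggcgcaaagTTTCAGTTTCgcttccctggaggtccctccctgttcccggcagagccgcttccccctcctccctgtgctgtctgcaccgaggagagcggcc
PARP14, chr3:122680589-122680888, plus strand: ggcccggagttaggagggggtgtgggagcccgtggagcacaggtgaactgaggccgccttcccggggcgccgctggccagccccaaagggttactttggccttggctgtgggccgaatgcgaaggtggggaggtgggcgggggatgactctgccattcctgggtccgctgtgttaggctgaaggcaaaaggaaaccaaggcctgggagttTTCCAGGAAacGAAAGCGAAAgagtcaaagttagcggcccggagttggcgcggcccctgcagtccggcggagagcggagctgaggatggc
PARP12, chr7:140062902-140063201, minus strand: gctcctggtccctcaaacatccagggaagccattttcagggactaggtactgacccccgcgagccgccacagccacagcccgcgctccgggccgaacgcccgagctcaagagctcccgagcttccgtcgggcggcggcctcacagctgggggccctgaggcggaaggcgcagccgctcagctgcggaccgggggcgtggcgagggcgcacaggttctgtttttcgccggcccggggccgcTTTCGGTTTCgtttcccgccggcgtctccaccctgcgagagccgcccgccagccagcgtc
PARP1, chr1:226408044-226408343, minus strand: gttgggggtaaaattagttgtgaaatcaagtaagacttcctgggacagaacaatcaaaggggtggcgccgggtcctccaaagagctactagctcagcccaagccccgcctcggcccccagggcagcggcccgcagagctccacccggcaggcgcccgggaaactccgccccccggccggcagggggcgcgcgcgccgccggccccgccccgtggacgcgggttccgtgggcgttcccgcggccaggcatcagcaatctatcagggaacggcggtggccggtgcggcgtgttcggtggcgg

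The DTX3L and PARP9 windows overlap by 137 bases, and the ISRE core in both is 1 site, at bases 122564332 to 122564341 of chromosome 3. It begins 6 bases before the RefSeq start of DTX3L, as GAAACTGAAA, and 41 bases before that of PARP9, as TTTCAGTTTC. The PARP9 start in the files, base 122564577, is a different one, and relative to that start the site lies downstream. A second PARP9 window in the table, at an upstream start, held neither motif. In PARP14 the core GAAAGCGAAA begins 29 bases before the start and the GAS core TTCCAGGAA 40 bases before it. In PARP12 the core TTTCGGTTTC begins 10 bases before the start. ZC3HAV1 held a GAS core alone (TTCCGGGAA, 104 bases before its start), as did PARP2 (TTCCCAGAA, 154 bases before), and PARP11 held neither. Of all 35116 windows in the table, 3.57% held the ISRE core and 7.66% the GAS core. These matches are descriptions of the letters, and binding was not measured.

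Depth was similar across libraries, with 3626000 to 4406296 counts, so that 3 counts correspond to 0.681 to 0.827 CPM, where CPM is the read count relative to the scaled library total. In bulk RNA, more cells with a transcript and more of it per cell cannot be told apart. All 10 renal and RCC4 epithelial markers were detected, of which VIM was called higher and KRT19 and PAX8 lower in treated cells. Their summed level was 6607 to 8185 CPM untreated and 8768 to 11908 CPM treated. It was carried mainly by VIM, with means of 4616 CPM untreated and 7314 CPM treated. PAX8, a renal lineage factor, averaged 145.5 ± 16.4 CPM untreated and 84.1 ± 11.5 CPM treated (SD, n = 3 each; edgeR adjusted p 0.0316). Of 7 immune markers 5 had 0 counts in all libraries, among them PTPRC and CD3E, and the list summed to at most 0.262 CPM in any untreated and 0.451 CPM in any treated library. All 4 endothelial markers had 0 counts, as did COL1A2, DCN and LUM of 5 fibroblast markers, and the fibroblast list, carried by COL1A1 and PDGFRB, summed to 54.8 to 74.5 CPM untreated and 27.4 to 49.1 CPM treated. Untreated replicate 3 stood apart from the other untreated libraries on the second principal component (-49.5, against 35.3 and 7.30), and the fold changes, ratios and levels per kb of PARP9, DTX3L and PARP14 are given with and without it.

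After treatment 6 of the 9 members rose, each by more than 3-fold in mean CPM, and 0 of the 9 fell, in edgeR, DESeq2 and limma voom alike. In edgeR's quasi-likelihood fit over 10067 genes, with p-values adjusted by Benjamini-Hochberg and a threshold of 0.05, 8.14% of all genes were called. The share called higher was 5.58%, and 4.98% were called with a rise of at least 2-fold, as were all 6 members. All 9 members passed the filter on low counts. The 6 were PARP9, DTX3L, PARP14, PARP10, PARP12 and ZC3HAV1, and the 3 not past the threshold were PARP11, PARP1 and PARP2. In 7 members, the 6 and PARP1, the lowest treated value exceeded the highest untreated value. Of all tested genes 13.9% had such a gap upward and 25.9% a gap in either direction. The median log2 fold change of the members was 2.61, against -0.03 over all genes tested, and since the members were named with results of these data known, this is a description.

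**Figure D1:**
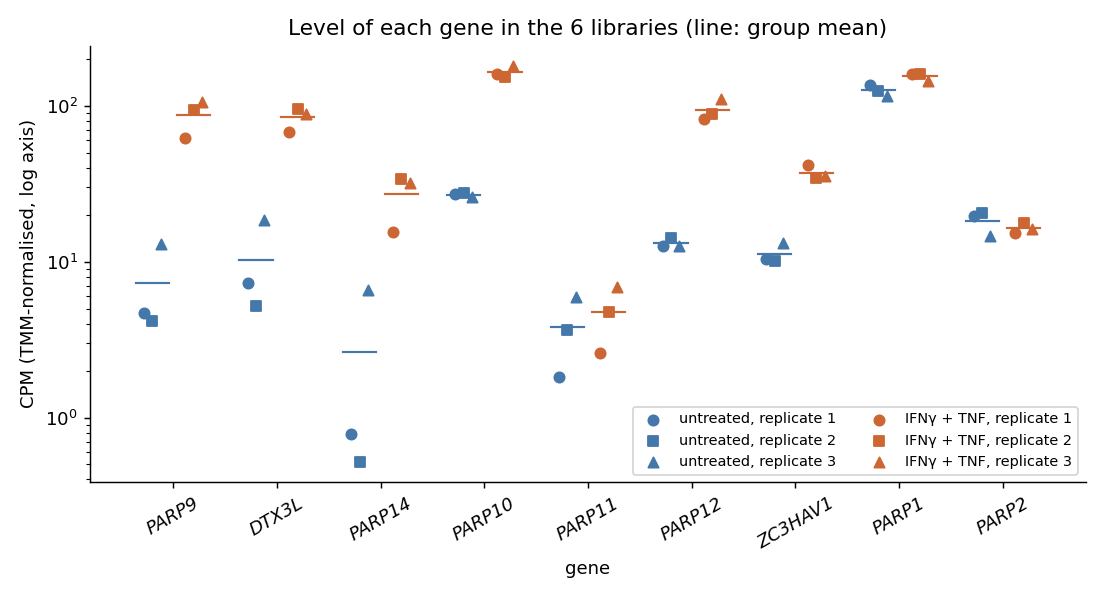
Level of each gene in CPM (log axis) in each of the 6 libraries, untreated in blue and IFNγ with TNF in orange, with a line at the group mean. PARP10 and PARP12 sit tightly within each group, PARP9, DTX3L and PARP14 have a raised untreated replicate 3, and PARP11, PARP1 and PARP2 lie close in both groups.

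PARP9 (ENSG00000138496, chr3:122527924-122564577, minus strand) carries macrodomains that bind ADP-ribose and works with DTX3L. It had 4.71, 4.14 and 13.0 CPM in untreated replicates 1, 2 and 3, and 62.1, 94.3 and 105.8 CPM in treated replicates 1, 2 and 3. The groups did not overlap, and untreated replicate 3 was the highest of the untreated libraries. The means were 7.28 ± 4.95 and 87.4 ± 22.7 CPM (SD, n = 3 each), a 12.0-fold rise. On the log2 scale the fitted rise was 3.56 with an SE of 0.43 (edgeR adjusted p 0.000969). Only 1.18% of the genes tested had a larger log2 fold change.

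DTX3L (ENSG00000163840, chr3:122564338-122575203, plus strand), the ubiquitin ligase of the pair, had 7.33, 5.17 and 18.4 CPM in the untreated replicates. In the treated replicates it had 68.4, 96.1 and 89.3 CPM. As for PARP9, untreated replicate 3 was high and the groups did not overlap. The fitted log2 rise was 3.02, with an SE of 0.42 (edgeR adjusted p 0.00221), or 8.20-fold between means of 10.3 ± 7.12 and 84.6 ± 14.4 CPM (SD, n = 3 each). Without untreated replicate 3 the log2 fold changes of PARP9 and DTX3L were 4.29 and 3.74, for both a fold more than 1.5 times as large as with all libraries.

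The balance of the pair was read within each library, where it does not depend on scaling. PARP9 reads per DTX3L read were 0.643, 0.8 and 0.704 in the untreated replicates and 0.907, 0.981 and 1.19 in the treated ones. The untreated ratios rest on few reads, 18, 16 and 57 of PARP9 and 28, 20 and 81 of DTX3L, so their counting error is large. All treated ratios were above all untreated ones, including untreated replicate 3. The log2 ratio went from -0.49 ± 0.16 to 0.03 ± 0.20 (SD, n = 3 each), a difference of 0.51. Its 2-sided exact permutation p was 0.1, the smallest that 3 against 3 libraries allow, so the difference cannot pass 0.05 in this design. It lay between 0.40 and 0.60 with each library left out in turn.

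PARP14 (ENSG00000173193, chr3:122680839-122730840, plus strand), a mono-ADP-ribosyltransferase with macrodomains, lies downstream of DTX3L on the same strand. Its counts were 3, 2 and 29 in the untreated replicates and 54, 151 and 112 in the treated ones, or 0.785, 0.517 and 6.60 CPM against 15.6, 34.1 and 31.9 CPM. Untreated replicate 3 held most of the untreated reads but stayed below every treated library. The fitted log2 rise was 3.31 (SE 0.71, 95% interval 1.70 to 4.92, edgeR adjusted p 0.0215). Its SE was the largest of the 6, and without untreated replicate 3 the log2 rise was 5.31 (edgeR adjusted p 3.79e-05). The adjusted p was 0.0664 without untreated replicate 2, 0.0785 without treated replicate 2 and 0.0874 without treated replicate 3, so that 5 members were called in each of these 3 fits.

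Untreated replicate 3 was 2.93 times the mean of the other untreated libraries for PARP9, 2.95 times for DTX3L and 10.1 times for PARP14. Over all genes tested the median of this ratio was 1.03, and 4.35% of genes reached the ratio of PARP9. IRF1, an interferon-induced transcription factor, was 0.801 times as high there. PARP10 and PARP12, at 0.946 and 0.935 times, did not share this difference. What sets this library apart was not tested.

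PARP10 (ENSG00000178685, chr8:143977153-144012772, minus strand), a mono-ADP-ribosyltransferase with RNA-recognition and ubiquitin-interacting motifs, had the smallest relative spread of the rising genes in both groups. It had 27.2, 27.7 and 26.0 CPM in untreated and 161.1, 152.8 and 181.1 CPM in treated replicates. The difference was far larger than the spread within either group, at 6.12-fold between means of 27.0 ± 0.885 and 165.0 ± 14.6 CPM (SD, n = 3 each). Its log2 rise of 2.61 had an SE of 0.18 and the smallest p among the members (edgeR adjusted p 3.00e-05). Exons of GRINA and SPATC1 on the opposite strand share 324 and 197 bases with those of PARP10, and the authors counted by strand.

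PARP12 (ENSG00000059378, chr7:140023749-140062951, minus strand), a CCCH zinc-finger mono-ADP-ribosyltransferase related to ZC3HAV1, had a level of 12.6, 14.2 and 12.5 CPM in untreated and 82.9, 88.2 and 110.4 CPM in treated replicates. No treated library came near the untreated ones. The log2 rise was 2.84, SE 0.21 (edgeR adjusted p 4.39e-05), or 7.16-fold between means of 13.1 ± 0.967 and 93.8 ± 14.6 CPM (SD, n = 3 each). When any 1 library was left out, it stayed between 2.71 and 2.93, and that of PARP10 between 2.55 and 2.72.

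ZC3HAV1 (ENSG00000105939, chr7:139043515-139132122, minus strand) encodes the zinc-finger antiviral protein, which binds CpG-rich RNA and lacks PARP activity. It had 10.5, 10.1 and 13.2 CPM in untreated and 41.9, 34.5 and 35.4 CPM in treated replicates, with no overlap between groups. The rise was 3.31-fold, the smallest of the 6, or 1.72 on the log2 scale (SE 0.22, edgeR adjusted p 0.00156). The 95% interval, 1.21 to 2.23, lay below that of PARP12, 2.37 to 3.31, and the difference between the genes was not tested. The counts are per gene, so its long and short protein forms were not separated.

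PARP11 (ENSG00000111224, chr12:3791047-3873448, minus strand), a mono-ADP-ribosyltransferase with a WWE domain, was the interferon-linked member that did not pass the threshold. Its counts were low, at 7, 14 and 26 in untreated and 9, 21 and 24 in treated replicates, and the groups overlapped fully. The log2 fold change was 0.30 with a 95% interval of -0.85 to 1.46 (edgeR adjusted p 0.847). Its upper bound lies above the lower bound of ZC3HAV1, 1.21, and below the fitted log2 rises of all 6 called genes.

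**Figure D2:**
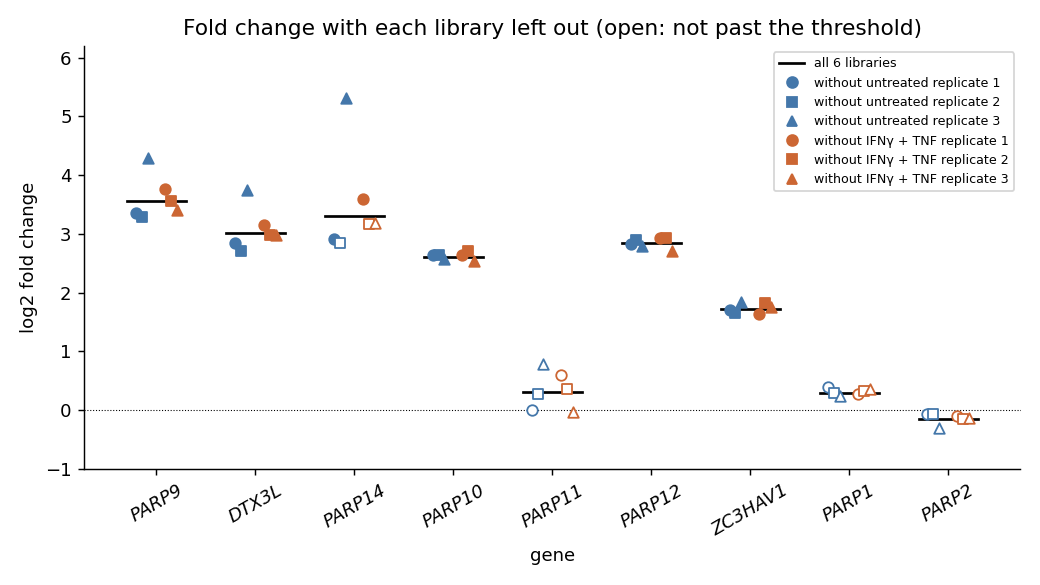
Log2 fold change of each gene (black line, all 6 libraries) and after leaving out each library, with open symbols where the adjusted p was no longer under 0.05. PARP14 ranges from 2.84 to 5.31 and loses its call in 3 fits, whereas PARP10, PARP12 and ZC3HAV1 keep theirs in all 6.

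PARP1 (ENSG00000143799, chr1:226360210-226408154, minus strand), the main DNA-damage PARP, was already abundant in untreated cells, at 136.9, 124.4 and 116.6 CPM. In treated cells it had 160.3, 161.4 and 143.8 CPM. These groups did not overlap, yet the difference of 1.23-fold did not pass the threshold, at 0.30 on the log2 scale (SE 0.16, 95% interval -0.07 to 0.67, edgeR adjusted p 0.369). The upper bound lies below the lower bound of each called member. PARP2 (ENSG00000129484, chr14:20343615-20357904, plus strand), which shares the DNA-break response with PARP1, had 19.6, 20.4 and 14.6 CPM in untreated and 15.3, 17.6 and 16.3 CPM in treated replicates. These values overlapped, at -0.15 on the log2 scale (SE 0.23, 95% interval -0.68 to 0.38, edgeR adjusted p 0.834).

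**Figure D3:**
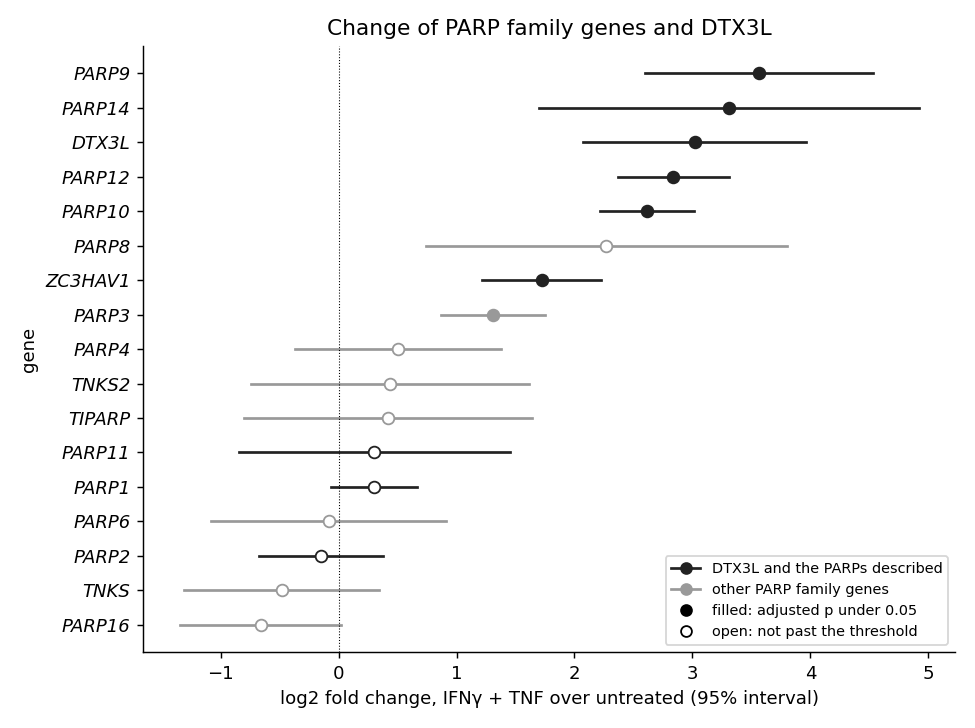
Log2 fold change with its 95% interval for DTX3L and the 16 tested PARP family genes, in black for the genes described and grey for the other family members, filled where the edgeR adjusted p was under 0.05. The intervals of the 6 called genes in black lie above 1, and those of PARP11, PARP1 and PARP2 span 0.

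Setting each member against the summed reads of PARP1 and PARP2 in the same library removes the effect of scaling. PARP10 went from 0.174, 0.191 and 0.198 reads per PARP1 or PARP2 read in untreated replicates to 0.918, 0.854 and 1.13 in treated ones. PARP9 went from 0.0301, 0.0286 and 0.0990 to 0.354, 0.527 and 0.661. Treated libraries were above all untreated ones for 6 of the 7 genes compared. These are the 6 called in edgeR, and since the ratios use the same counts, this is no separate support. In CPM, 13.9% of all tested genes had such a gap upward. No share over all genes was computed for this ratio. The mean log2 ratio was higher in treated libraries by 3.96 for PARP14, 3.50 for PARP9, 2.99 for DTX3L, 2.58 for PARP12, 2.36 for PARP10 and 1.48 for ZC3HAV1. Without untreated replicate 3 the difference was 5.15 for PARP14, 4.08 for PARP9 and 3.58 for DTX3L, and without untreated replicate 2 it was 3.24 for PARP14. With all libraries each of these had a 2-sided exact permutation p of 0.1, the smallest possible, and 0.117 after Benjamini-Hochberg adjustment over the 7 ratios. PARP11 differed by 0.11, with an exact permutation p of 0.8.

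**Figure D4:**
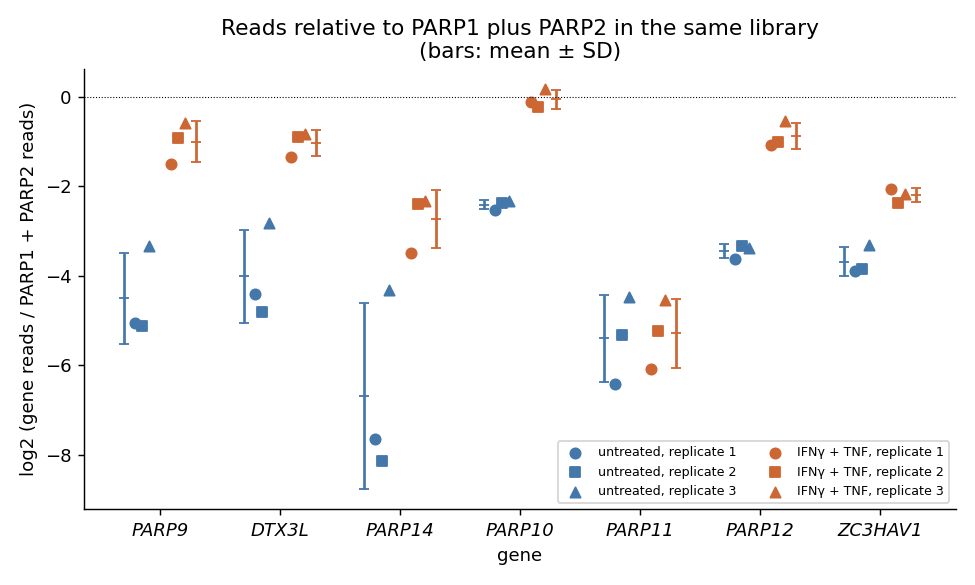
Log2 of the reads of each gene over the summed reads of PARP1 and PARP2 in the same library, one symbol per library, with the group mean and SD beside them. In treated libraries PARP10 lies around 0, which is as many reads as PARP1 and PARP2 together.

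The make-up of the PARP transcript pool is given without a test, since it follows from the reads described above. Over 17 PARP genes, DTX3L left out, the summed level was 271.8, 267.3 and 318.1 CPM in untreated and 645.2, 707.8 and 768.4 CPM in treated replicates. PARP1 and PARP2 together held 51.0% ± 8.63 of these reads before and 24.4% ± 3.28 after treatment (SD, n = 3 each). PARP9, PARP10, PARP12 and PARP14 together held 17.4% ± 0.794 and 52.6% ± 3.02 (SD, n = 3 each). Without untreated replicate 3 these untreated shares were 55.9% and 17.0%. Shares sum to a whole, so the lower share of PARP1 and PARP2 does not mean fewer of their reads.

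Between genes, levels were compared as CPM per kb of merged exons, and again per kb of the longest coding transcript in GENCODE 29. A direct RNA read comes from 1 molecule, so reads need not scale with length, and the order of several genes depended on the length used. The merged exons of PARP1 span 18399 bases, whereas its longest coding transcript has 3958. Without division by length, treated PARP1 and PARP10 were at 155.1 ± 9.87 and 165.0 ± 14.6 CPM (SD, n = 3 each).

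In untreated cells PARP1 was highest by both lengths, at 6.85 ± 0.558 CPM per kb of exons and 31.8 ± 2.59 CPM per kb of transcript (SD, n = 3 each). PARP2 and PARP10 followed, at 4.48 ± 0.782 and 4.47 ± 0.147 CPM per kb of exons, and did not differ beyond their spread by either length. PARP12 (2.38 ± 0.175), DTX3L (1.79 ± 1.23), ZC3HAV1 (1.33 ± 0.201), PARP9 (0.814 ± 0.554), PARP11 (0.611 ± 0.331) and PARP14 (0.257 ± 0.335) came next in CPM per kb of exons. From DTX3L to PARP14, neighbours in this order overlapped within 1 SD of each mean by both lengths. Without untreated replicate 3 the level of DTX3L was 1.08 CPM per kb of exons, below ZC3HAV1 at 1.21, with PARP9 at 0.495, PARP11 at 0.44 and PARP14 at 0.0634.

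In treated cells PARP10 was highest by both lengths, at 27.4 ± 2.41 CPM per kb of exons and 47.2 ± 4.16 CPM per kb of transcript (SD, n = 3 each). PARP12 (17.0 ± 2.65), DTX3L (14.7 ± 2.50), PARP9 (9.78 ± 2.54), PARP1 (8.43 ± 0.537), ZC3HAV1 (4.40 ± 0.475) and PARP2 (4.03 ± 0.284) followed in CPM per kb of exons. PARP14 (2.65 ± 0.984) and PARP11 (0.763 ± 0.342) were lowest by both lengths. Per kb of transcript PARP1 was second, at 39.2 ± 2.49, and PARP2, at 8.28 ± 0.583, was above ZC3HAV1, at 5.25 ± 0.566. DTX3L and PARP9 did not differ beyond their spread by either length. PARP12 and DTX3L, PARP9 and PARP1, and ZC3HAV1 and PARP2 overlapped within 1 SD per kb of exons but not per kb of transcript.

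The surroundings of PARP9 and DTX3L were examined over 500 kb on each side. Of 20 other genes lying there at least in part, PARP14 aside, 8 were tested and 0 passed the threshold in edgeR's test, with 1 at an unadjusted p under 0.05. DESeq2 and limma voom also called 0 of the 8. Log2 fold changes ran from -0.83 for FAM162A to 0.50 for HSPBAP1. KPNA1, a nuclear import receptor and the nearest tested gene, had 0.01 (SE 0.19), PDIA5 0.01 and WDR5B 0.00. The others were MIX23 (-0.31), WDR5B-DT (-0.49) and SLC49A4 (-0.55). PARP15, a macrodomain PARP that lies between DTX3L and PARP14, had 0 counts in all 6 libraries.

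**Figure D5:**
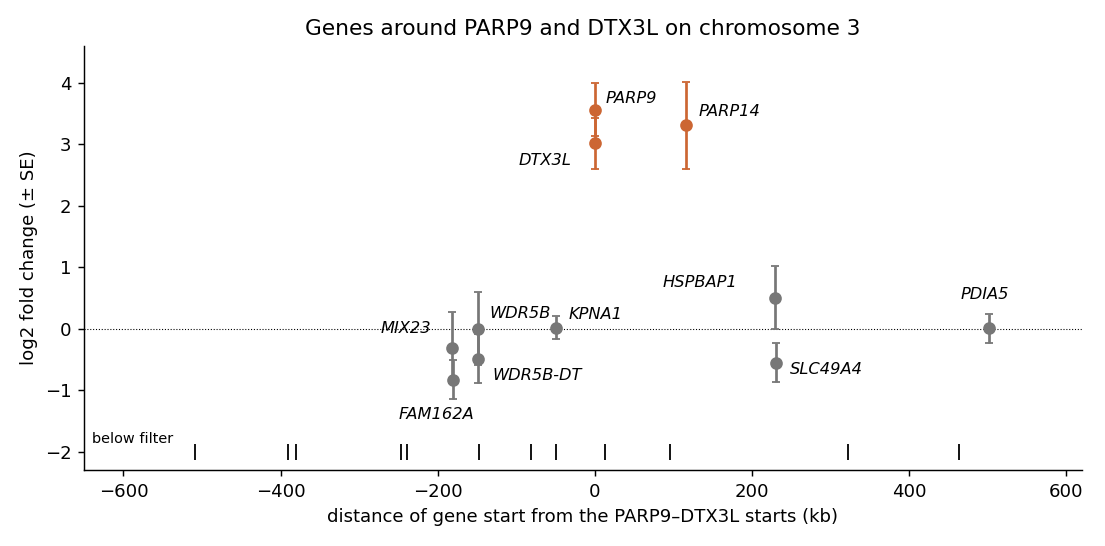
Log2 fold change (± SE) of the tested genes around PARP9 and DTX3L against the distance of each start from the pair, in orange where the gene was called higher, with ticks for genes below the filter. PARP9, DTX3L and PARP14 lie between 3.02 and 3.56, and the 8 other tested genes between -0.83 and 0.50.

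Beside the 5.58% called higher over all genes tested, 1 of the 8 tested among 9 other PARP family genes rose. This was PARP3, a mono-ADP-ribosyltransferase of the DNA-damage response, with 20.2 ± 2.41 CPM untreated and 50.3 ± 2.64 CPM treated (SD, n = 3 each), a log2 rise of 1.31 (SE 0.19, edgeR adjusted p 0.00330). PARP8 had a log2 fold change of 2.27 on counts of 2, 2 and 13 against 12, 29 and 36, with an edgeR adjusted p of 0.0806, and was called by DESeq2 but not by limma voom. The median of the 8 was 0.43.

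The next lists hold genes that read, remove or supply ADP-ribose, and at the 8.14% called over all genes under 1 call would fall in each, so the counts show nothing particular to them. Among 13 readers and erasers, 10 were tested and 0 passed in edgeR or limma voom, with 3 at an unadjusted p under 0.05 in edgeR. DESeq2 called ADPRS, which removes serine-linked ADP-ribose and was at 0.77 on the log2 scale (edgeR adjusted p 0.0733). ADPRS and TRPT1 (0.23) had the highest means over all 6 libraries, and MACROD1 was above TRPT1 in untreated cells. Of 4 deltex ligases related to DTX3L, 2 were tested, DTX2 and DTX4, with log2 fold changes of 0.20 and 0.98 and edgeR adjusted p of 0.781 and 0.0625, and 1 of them had an unadjusted p under 0.05. In the NAD+ synthesis list 6 of 10 genes were tested and 0 passed in edgeR, with 1 at an unadjusted p under 0.05. Over all 6 libraries its highest means were those of QPRT, of the de novo pathway (-0.54, edgeR adjusted p 0.0733), and NADSYN1 (-0.30), which in treated cells lay below NADK and NAMPT. DESeq2 and limma voom called 0 in the deltex and NAD+ synthesis lists.

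For the 3 lists that follow, the share called higher over all genes tested was 5.58%, and with lists this small the counts are a description. Among 10 other genes that consume NAD+ or its precursors, 7 were tested and 1 rose, NNMT, the nicotinamide N-methyltransferase. Its mean was 999.5 ± 63.9 CPM untreated and 3116 ± 722.9 CPM treated (SD, n = 3 each), a log2 rise of 1.64 (edgeR adjusted p 0.000855). Of 6 cofactors of the zinc-finger antiviral protein, all were tested and 2 rose. TRIM25, a ubiquitin ligase needed for its activity, had a log2 fold change of 1.23 (edgeR adjusted p 0.00832), and 0.0592 without untreated replicate 2. N4BP1 had 1.25 (edgeR adjusted p 0.0349), which did not hold with library totals (0.0832) or without untreated replicate 1 (0.0800), untreated replicate 2 (0.136), treated replicate 2 (0.0922) or treated replicate 3 (0.147). Of 10 repair partners of PARP1 all were tested and 0 passed in edgeR, DESeq2 or limma voom, with 2 at an unadjusted p under 0.05 in each. XRCC6 and XRCC5, the Ku subunits that bind DNA ends, were the most abundant (-0.13 and -0.28).

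Likeness to PARP9 was measured as Pearson's r of log2 CPM over the 6 libraries, among the 6760 genes averaging 10 CPM or more. The nearest genes were CDC42SE2 (0.998), PHLDA1 (0.996), DTX3L (0.996), DRAM1 (0.995) and CYLD (0.995). The libraries fall into 2 groups, so r mostly reflects the treatment difference. DTX3L was at place 3 of the 6760, PARP14 at 64 (r = 0.98), ZC3HAV1 at 123, PARP12 at 187 and PARP10 at 195. Untreated replicate 3, relative to the other untreated libraries, was 2.93 times as high for PARP9, 2.95 for DTX3L and 10.1 for PARP14. For ZC3HAV1, PARP12 and PARP10 it was 1.29, 0.935 and 0.946 times. This library therefore also enters the order, and r was not computed without it. For PARP1 the nearest were PSMC1 (0.997), LZTS1, MRPL9, UBE2L3 and BOLA3 (0.977).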

How the data were processed

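RNA of 6 RCC4 cultures was sequenced from 500 ng of poly(A) RNA for 72 h per library, and reads with a quality above 7 were used, per the labels and design text. Deposited values are raw read counts per gene. They were made with featureCounts 2.0.1 in long-read, strand-specific mode on exons of Ensembl release 105 (GRCh38), per the file headers. The submitters' processing notes name minimap2 2.24, SAMtools 1.16 and featureCounts 2.0.0. The exonic length per gene, another deposited column, was used for levels per kb.

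Alignment names in the headers contain the word dmso, and groups were taken from the sample titles. Symbols came from a gene name table that named 61369 of the 61541 genes. No member shares exonic bases with another gene on its strand.

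Tests used edgeR 4.0.16 (quasi-likelihood, TMM, filterByExpr, group alone, threshold 0.05) in R 4.3.3. SE was derived from the fold change and F. Within-library ratios used exact permutation tests (scipy 1.17.1). Alternatives used DESeq2 1.42.0, limma 3.58.1 voom, 2 scalings, 2 filters, the replicate block and leaving out each library. The scripts were tested on simulated data, where edgeR recovered 22 of 97 genes changed 2-fold and 82 of 98 changed 4-fold. A gene that was not called may therefore still have changed 2-fold. Replicates of a group were not duplicates of each other, as their counts differed beyond sampling noise. Intervals and limits cover counting error or the spread of these libraries alone.

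The members, gene lists and the rule for named genes were chosen with earlier results of these data known. Some results are not reported here. The rule took all members, up to 4 called genes per list or the 2 most abundant where none was called, tested neighbours within 500 kb, and the 5 genes most like PARP9 and PARP1.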

Additional observations from a re-analysis of the deposited data

How the results depend on the processing

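The count of 6 members called held with DESeq2 size factors, library totals, both filters, DESeq2, limma voom and the replicate block, and was 5 to 6 with each library left out. Whether the same replicate number pairs 2 libraries is not settled. The correlation of deviations was 0.65, -0.00 and 0.37 for numbers 1, 2 and 3, and -0.67 to 0.41 between different numbers. With the replicate block 1513 genes were called against 819, 13 listed genes against 4, and 1 chromosome 3 neighbour (FAM162A) against 0, while the calls of the members were unchanged. Testing every gene with at least 1 count gave 1328 calls over all genes and 7 over the lists. Without 1 library, counts ran from 455 to 1178 over all genes, from 2 to 11 over the lists and from 0 to 1 among neighbours. With library totals the median over all genes was -0.13 (log2). limma voom gave 3.98 for PARP14.

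Some signs changed, none of a called gene. The PARP11 ratio to PARP1 and PARP2 ran from -0.39 to 0.58 without 1 library, and the PARP11 log2 fold change from -0.0341 to 0.78. Those of MIX23 (-0.81 to 0.20), WDR5B (-0.35 to 0.52), KPNA1 (-0.0470 to 0.13) and PDIA5 (-0.11 to 0.18) also crossed 0 in these fits. WDR5B had 0.0131 with DESeq2 size factors, 0.0291 with every gene of at least 1 count, 0.0125 in DESeq2, 0.13 in limma voom and 0.0630 with the replicate block. With library totals KPNA1 had -0.0862 and PDIA5 -0.11. The cause was not tested. PARP11 and PARP14 had under 30 counts in every untreated library. The transcript length used for levels per kb, and the levels and shares without untreated replicate 3, were chosen after the data were examined.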
